A study of Mus musculus with 5 samples.

Results

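Hmgcs1, Idi1, Fdps, Sqle and Insig1 serve cholesterol synthesis and its control, and these 5 genes were taken by name from the 16498 genes of a single-cell RNA table of the mouse aortic arch. The table compared 2 libraries of Apoe-/- mice, which lack apolipoprotein E and develop atherosclerosis, with 3 libraries labelled Oasl1-/-Apoe-/-, whose mice also carried a whole-body deletion of the promoter and exon 2 of Oasl1, an interferon-induced member of the oligoadenylate synthetase-like family. Both groups lacked Apoe, were backcrossed to C57BL/6, ate normal chow for 28 weeks and were set against littermates. Live cells from the aortic root to the curvature were sorted by DAPI exclusion and read from the 3′ end of each RNA, with cells of several mice pooled. The sources do not say which mice went into which library, so the p-values below measure the spread between libraries, part of which may be technical. Oasl1 itself was at 0.0145 and 0.00854 in the Apoe-/- libraries and at 0.1685, 0.163 and 0.198 in the libraries labelled Oasl1-/-Apoe-/-, in UMIs (unique molecular identifiers) per 10000 UMIs of the cell, written CP10K below. It was thus higher, not lower, under the knockout label. The 3′ end lies outside the deleted part, but that part includes the promoter, and where the Oasl1 reads lay was not looked at. The reason for the higher level was not tested, so the labels could not be checked from these values. The labels are the only basis of each direction below.

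The libraries held 3212 to 4338 cells each, 18260 in all, with 16959976 to 19813039 UMIs per library and medians of 4495 to 5186.5 UMIs per cell. Cells were sorted into types by clusters whose marker genes gave the name, so that each name means "like that type by its markers", and the genes of the sterol lists were left out of the clustering. In 7 types every library had at least 20 cells, namely 9411 smooth muscle cells (SMCs), 2372 macrophages, 1567 endothelial cells (ECs), 1008 fibroblasts, 722 NK/T cells, 514 monocytes and 399 dendritic cells. In each of these 7 types the whole marker list of that type was present in UMIs. The libraries shared few barcodes, with 165 of 18094 found in more than 1 of them.

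Cells make cholesterol from acetyl-CoA through mevalonate. Hmgcs1 makes HMG-CoA, Idi1 isomerises the isoprene unit, Fdps joins such units into farnesyl pyrophosphate, and Sqle oxidises squalene at the first step of the pathway that needs oxygen. Transcription of these genes is driven by SREBP2 (gene Srebf2). When sterols are plentiful, Insig1 and Insig2 hold the SREBP escort protein Scap in the endoplasmic reticulum, and transcription falls. Insig1 is itself an SREBP target. In the artery wall, SMCs and macrophages both take up lipoprotein, and macrophages loaded with sterol switch on LXR target genes such as Abca1 and Abcg1 for its export.

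The promoters of the genes were looked at because the genes share a regulator. RefSeq sequence of GRCm38.p6 was at hand for 3 of the 5 genes (Hmgcs1, Idi1 and Insig1). The 250 bases before each RefSeq start are printed 5′ to 3′ on the plus strand, which is the strand of all 3 genes, and capitals mark the searched motifs. These were TCACNCCAC, a core of the sterol regulatory element, CCAAT, the box of NF-Y, and GGGCGG, the box of Sp1, each on either strand (GTGGNGTGA, ATTGG and CCGCCC), and no motif overlapped another in the windows shown.
Hmgcs1, chr13:119690101-119690350: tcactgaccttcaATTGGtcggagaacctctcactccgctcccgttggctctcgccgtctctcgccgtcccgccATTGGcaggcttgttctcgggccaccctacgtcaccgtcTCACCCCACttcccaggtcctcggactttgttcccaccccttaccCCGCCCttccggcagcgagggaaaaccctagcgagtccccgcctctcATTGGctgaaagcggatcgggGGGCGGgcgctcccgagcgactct
Idi1, chr13:8885356-8885605: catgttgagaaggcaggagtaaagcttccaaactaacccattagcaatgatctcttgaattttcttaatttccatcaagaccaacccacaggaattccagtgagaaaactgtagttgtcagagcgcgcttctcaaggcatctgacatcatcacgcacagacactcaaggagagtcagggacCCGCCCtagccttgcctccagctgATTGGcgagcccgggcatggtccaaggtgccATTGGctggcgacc
Insig1, chr5:28071162-28071411: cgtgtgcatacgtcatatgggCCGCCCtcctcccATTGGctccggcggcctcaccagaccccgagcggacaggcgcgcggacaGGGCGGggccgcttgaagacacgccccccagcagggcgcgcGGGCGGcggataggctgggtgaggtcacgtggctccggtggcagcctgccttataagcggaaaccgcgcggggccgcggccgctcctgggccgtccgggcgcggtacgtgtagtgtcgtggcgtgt
The sterol element core was found once, as TCACCCCAC in Hmgcs1, 137 to 129 bases before the start, whereas CCAAT and GGGCGG were found in all 3. Over the 27025 genes with a RefSeq promoter, 1.225% held the core in a window of the same length, 37.49% held CCAAT and 35.36% held GGGCGG. Of the 21 genes of a sterol synthesis list, 16 had a promoter, of which 15 held CCAAT, 14 held GGGCGG and 1, Hmgcs1, held the core. A match is a run of letters and not a shown binding site.

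By position in GRCm38, Hmgcs1 (ENSMUSG00000093930) lies at chr13:119690379-119708260 on the plus strand and Idi1 (ENSMUSG00000058258) at chr13:8885501-8892451 on the plus strand. Fdps (ENSMUSG00000059743) lies at chr3:89093588-89101959 on the minus strand, Sqle (ENSMUSG00000022351) at chr15:59315077-59331192 on the plus strand and Insig1 (ENSMUSG00000045294) at chr5:28071363-28078662 on the plus strand. The annotated gene starts differ from the RefSeq starts used for the promoters, so that the Idi1 and Insig1 windows reach into the annotated genes.

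In the whole aorta, 3 of the 5 genes were lower in the libraries labelled Oasl1-/-Apoe-/-. Hmgcs1 fell by 35.2%, Sqle by 32.0% and Idi1 by 31.2% of the Apoe-/- mean, while Fdps and Insig1 did not pass the test. The share of SMCs, in which 4 of the 5 genes were highest, was lower in the same libraries, and with all libraries brought to the same cell type shares only Hmgcs1 of the 5 remained past the threshold. Differences are given on a log2 scale as log2(mean CP10K + 0.05), labelled Oasl1-/-Apoe-/- minus Apoe-/-, a scale that understates the change of low genes. They were tested with limma across all genes with a mean of at least 0.05 CP10K, and a gene is called lower or higher where its p after Benjamini-Hochberg adjustment is under 0.05.

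Hmgcs1 was at 0.409 and 0.414 CP10K in the Apoe-/- libraries and at 0.2735, 0.259 and 0.268 CP10K in the libraries labelled Oasl1-/-Apoe-/-. All 3 of the latter lay below both of the former, from 800 and 801 UMIs against 473, 419 and 447. The means were 0.4115 ± 0.00378 (SD, n = 2) and 0.267 ± 0.00743 (SD, n = 3), a log2 difference of −0.54 (SE 0.0596, limma adjusted p 4.8e-05). For Idi1 the levels were 0.1635 and 0.144 CP10K against 0.0968, 0.110 and 0.110 CP10K. The groups again did not overlap (log2 difference −0.39, SE 0.0789, limma adjusted p 0.003). Sqle stood at 0.153 and 0.162 CP10K against 0.103, 0.109 and 0.110 CP10K, without overlap (log2 difference −0.40, SE 0.0702, limma adjusted p 0.00117). These 3 are the called genes, and in the whole aorta 20.6% of the 9836 genes tested were called lower.

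Fdps was at 0.376 and 0.326 CP10K against 0.291, 0.3085 and 0.313 CP10K. Its groups did not overlap either, but the gap was small beside the spread between the Apoe-/- libraries (log2 difference −0.18, SE 0.0712, limma adjusted p 0.0728). It was past the threshold in 4 of the other fits, with the log2 difference at −0.21 to −0.27, among them limma-voom on the UMIs (adjusted p 0.0146) and the fit without Apoe-/- replicate 2 (adjusted p 0.0154). Insig1 was at 0.155 and 0.161 CP10K against 0.143, 0.157 and 0.169 CP10K, so that the groups overlapped (log2 difference −0.01, SE 0.0759, limma adjusted p 0.909). In 4 of the 5 genes the labelled Oasl1-/-Apoe-/- libraries thus lay wholly below the Apoe-/- libraries, as did 33.9% of all genes tested.

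The cell makeup moved with these differences. The SMC share was 62.2% and 64.6% under Apoe-/- and 41.5%, 41.3% and 41.2% under the Oasl1-/-Apoe-/- label. Macrophages were at 7.38% and 7.08% against 17.3%, 17.3% and 19.2%, and fibroblasts at 2.43% and 2.33% against 7.49%, 8.72% and 8.46%. In a sum over the whole aorta, fewer cells of a type and less RNA per cell cannot be told apart. Most UMIs of 4 of the 5 genes came from SMCs in every library. For Hmgcs1 this part was 86.6% and 82.4% in the Apoe-/- libraries and 62.6%, 62.1% and 63.3% in the others, and for Sqle it was 89.0% and 92.2% against 75.7%, 71.7% and 72.8%. Insig1 was the exception, with 63.5% and 70.7% of its UMIs from SMCs against 36.3%, 29.3% and 33.2%, and with 7.72% and 7.41% from macrophages against 20.5%, 23.3% and 22.6%.

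When every library was given the same cell type shares, Hmgcs1 was at 0.356 and 0.360 CP10K against 0.3006, 0.283 and 0.2885 CP10K. The groups still did not overlap, and the log2 difference was −0.26 (limma adjusted p 0.0206). With these weights 1 of the 5 genes was called, where 3.61% of 9823 genes were called lower. Idi1 was at a log2 difference of −0.17 (limma adjusted p 0.264), Sqle at −0.11 (0.368) and Insig1 at −0.01 (0.937). Fdps changed sign to 0.09 (limma adjusted p 0.53).

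**Figure D1:**
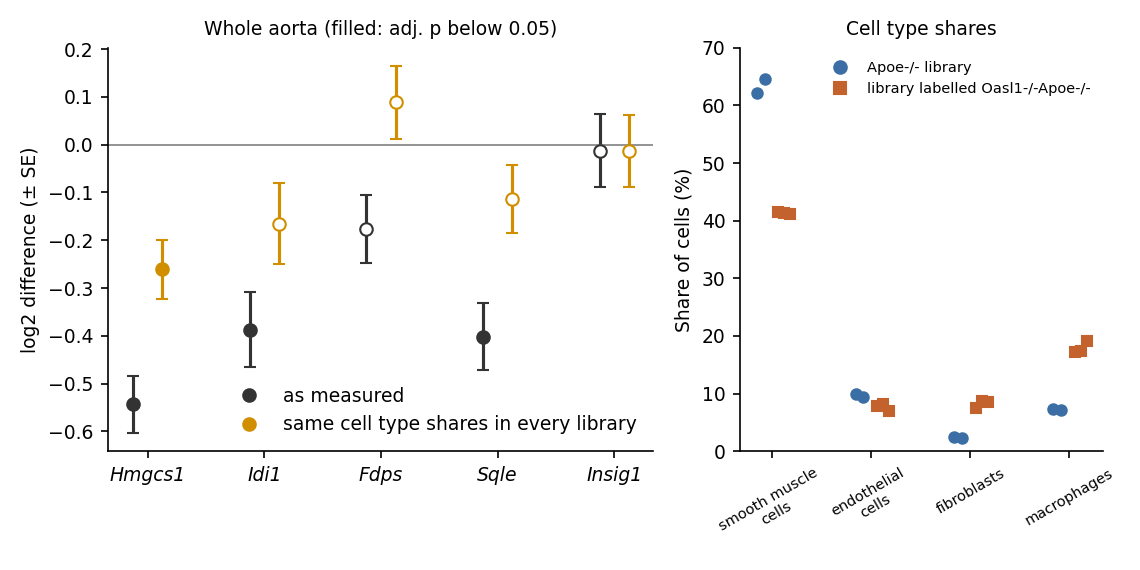
Left, log2 difference between the libraries labelled Oasl1-/-Apoe-/- and the Apoe-/- libraries in the whole aorta for the 5 genes (point and SE from limma, filled where the adjusted p is under 0.05), as measured and with the same cell type shares in every library. Right, share of cells in percent for 4 cell types, 1 point per library. Hmgcs1 moved from −0.54 to −0.26 and stayed filled, Idi1 and Sqle did not, and SMCs were at 62.2% and 64.6% of cells against 41.2% to 41.5%.

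Within SMCs, the contractile cells of the vessel wall, Hmgcs1 was lower in the libraries labelled Oasl1-/-Apoe-/- by 21.6%. Sqle, Idi1 and Insig1 lay 17.1%, 18.95% and 21.7% below the Apoe-/- mean without passing the test over all genes, and Fdps was level. Hmgcs1 was at 0.556 and 0.511 CP10K against 0.444, 0.392 and 0.419 CP10K, a log2 difference of −0.32 (SE 0.0764, limma adjusted p 0.0163). This was 1 called gene of 5, where 2.11% of the 8975 genes tested in SMCs were called lower. The call was lost without Apoe-/- replicate 1 (log2 difference −0.26, adjusted p 0.101), without replicate 2 labelled Oasl1-/-Apoe-/- (−0.28, 0.0706), without replicate 3 of that label (−0.32, 0.0663), and with each cell thinned to 1000 UMIs (−0.21, 0.666), which leaves fewer UMIs per gene.

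Sqle in SMCs was at 0.220 and 0.232 CP10K against 0.187, 0.184 and 0.191 CP10K. The groups did not overlap, at a log2 difference of −0.22 (SE 0.086, limma adjusted p 0.164). Idi1 stood at 0.219 and 0.189 CP10K against 0.156, 0.172 and 0.1685 CP10K (log2 difference −0.24, SE 0.0929, limma adjusted p 0.16). Insig1, which overlapped between the groups in the whole aorta, did not overlap in SMCs, with 0.148 and 0.166 CP10K against 0.1245, 0.114 and 0.131 CP10K (log2 difference −0.26, SE 0.0965, limma adjusted p 0.133). For Fdps the levels of 0.481 and 0.416 CP10K enclosed those of 0.454, 0.453 and 0.470 CP10K (log2 difference 0.03, SE 0.0767, limma adjusted p 0.859). So 4 of the 5 genes lay wholly below the Apoe-/- libraries in SMCs, where 15.0% of all genes tested did.

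**Figure D2:**
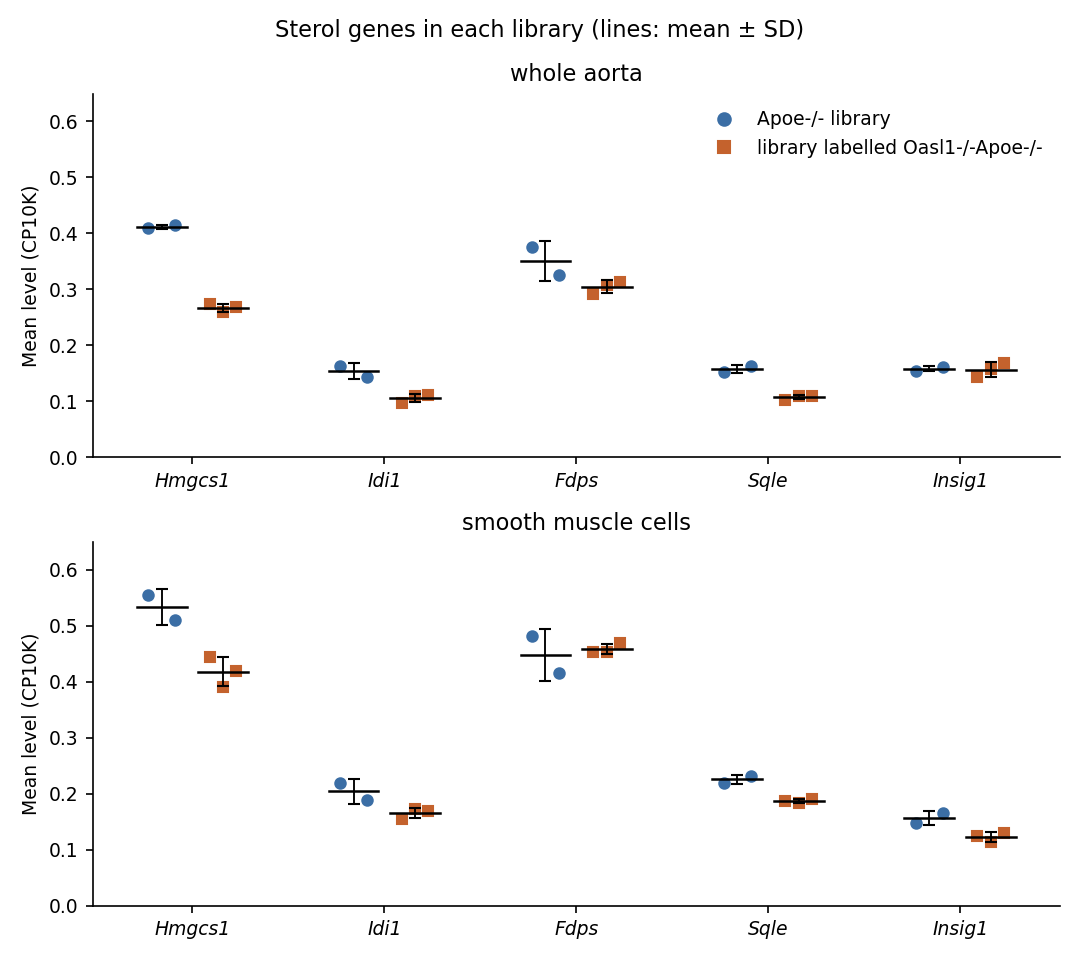
Mean level of the 5 genes in CP10K in the whole aorta and in SMCs, 1 point per library, with lines at the mean ± SD of each group. In SMCs the 3 libraries labelled Oasl1-/-Apoe-/- lie below both Apoe-/- libraries for Hmgcs1, Idi1, Sqle and Insig1, and between them for Fdps.

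The difference in Hmgcs1 was seen in parts of the SMC class as well. In a cluster with Fbxl22, Tpm2 and Acta2 among its leading genes it was at 0.538 and 0.535 CP10K against 0.411, 0.418 and 0.3925 CP10K, and in a cluster led by Lsmem1, Flnc and Des at 0.533 and 0.555 CP10K against 0.418, 0.409 and 0.518 CP10K, without overlap in either. In the largest cluster, with Rgs5, Sh3bgr and Tpm2 among its leading genes, the groups overlapped, with 0.586 and 0.480 CP10K against 0.5115, 0.347 and 0.391 CP10K. These 3 clusters held 42.5%, 28.4% and 23.5% of Apoe-/- SMCs in the order of their size and 35.7%, 28.9% and 28.3% of SMCs labelled Oasl1-/-Apoe-/-. A cluster led by the haemoglobin gene Hbb-bs held 5.43% and 5.06%, and a small one with interferon-induced Ifit1 and Ifit3 on top held 0.169% and 2.04%.

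Other gene groups moved between the same SMC libraries, where 368 of all 8975 genes tested were called higher and 189 lower. All 7 tested genes of an interferon list were higher, with Ifit1 at a log2 difference of 1.86, Isg15 at 1.66 and Usp18 at 1.64. Of 13 tested clock genes, 7 were higher and 1, Arntl (named after its value was seen), was lower, with the largest differences in Dbp (1.72), Bhlhe41 (0.97) and Hlf (0.78), all 3 of them parts of the circadian loop or its output. Of 13 genes that answer tissue dissociation or stress, 3 were higher and 3 lower, among them the heat shock genes Hspa1b (0.73) and Hspa1a (0.41) and Jun (−0.32). The 7 macrophage markers in SMCs summed to 0.209 to 0.236 CP10K in the Apoe-/- libraries and to 0.5065 to 0.583 CP10K in the others, while Hmgcs1 was lower in macrophages than in the other types, and the part of these differences in that of Hmgcs1 was not tested. Erythroid markers in SMCs varied between libraries within both groups (15.4 to 34.2 against 2.01 to 22.25 CP10K).

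In shares of cells, a UMI of Hmgcs1 was found in 20.1% of Apoe-/- SMCs (Wilson 95% interval 19.04 to 21.2, 5339 cells) and in 17.2% of SMCs labelled Oasl1-/-Apoe-/- (16.04 to 18.4, 4072 cells), at median depths of 4779 and 5032 UMIs. By library the shares were 21.8% and 18.6% against 17.96%, 16.5% and 16.98%, which do not overlap. With every cell thinned to 1000 UMIs, which kept 5313 and 4043 SMCs of the groups, they were 5.30% and 4.85% against 4.14%, 3.785% and 4.69%. A two-sided exact permutation test of the library shares gave p 0.1 and 0.2, where 0.1 is the smallest p that 2 against 3 libraries allow. The intervals cover counting error only. In a type with little Sqle, the ECs, 0.489% of Apoe-/- cells (4 of 818) had a Sqle UMI at a median of 2876 UMIs, against 9.78% of Apoe-/- SMCs.

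In the other 6 cell types none of the tested genes among the 5 was called. These were 4 genes in ECs, where 1.23% of all genes tested were called lower, 3 in macrophages (8.18%), 5 in fibroblasts (1.80%), 4 in NK/T cells (0.521%), 3 in monocytes (1.82%) and 4 in dendritic cells (0.461%). Without adjustment, 1 of these 23 tests had a p under 0.05, that of Hmgcs1 in ECs (p 0.0396). Limma-voom on the UMIs also called none of them, with an unadjusted p under 0.05 for Idi1 in ECs alone. Genes left out for a mean below 0.05 CP10K were Sqle in ECs, dendritic cells, macrophages and monocytes, Idi1 in macrophages and monocytes, and Fdps in NK/T cells.

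Hmgcs1 in ECs, the lining of the vessel, was at 0.133 and 0.266 CP10K against 0.149, 0.112 and 0.0596 CP10K. The Apoe-/- libraries differed by as much as the groups did, and the log2 difference was −0.66 (SE 0.309, limma adjusted p 0.339) from 8 to 37 UMIs per library. An EC cluster led by Adh7, Klk10 and Ptprb held 79.0% of Apoe-/- ECs and 61.3% of the others. Idi1 in ECs was at 0.0891 and 0.0704 CP10K against 0.0102, 0.0804 and 0.0450 CP10K (log2 difference −0.51, limma adjusted p 0.602). With a library left out, the difference of Hmgcs1 in ECs ran from −1.05 without Apoe-/- replicate 1 to −0.27 without Apoe-/- replicate 2, and that of Idi1 from −0.78 to −0.22 without replicates 2 and 1 labelled Oasl1-/-Apoe-/-. Fdps and Insig1 in ECs overlapped between the groups, at log2 differences of −0.14 and −0.13 (limma adjusted p 0.894 and 0.9).

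Macrophages, which engulf lipoprotein in the plaque, had Hmgcs1 at 0.0924 and 0.143 CP10K against 0.0897, 0.0889 and 0.0863 CP10K (log2 difference −0.26, limma adjusted p 0.362, −0.48 to −0.04 with a library left out). Insig1 went the other way in them, with 0.119 and 0.130 CP10K against 0.138, 0.173 and 0.165 CP10K. The groups did not overlap, but the test was not passed (log2 difference 0.25, SE 0.158, limma adjusted p 0.322). The macrophage class was made of different clusters in the groups, since one with Gpnmb, Trem2 and Lpl on top took 79.3% of it under Apoe-/- and 43.4% under the other label, and one with the chemokine genes Ccl12 and Ccl8 on top took 20.7% and 56.6%. With both clusters given equal weight, the Insig1 difference was −0.01. In the Ccl12 cluster Fdps was at 0.658 CP10K in Apoe-/- replicate 1, from 60 cells, and at 0.063 to 0.158 CP10K in the other 4 libraries, and Sqle and Idi1 were also highest in that library there. Without Apoe-/- replicate 1 the Fdps difference in macrophages went from −0.08 to 0.26.

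In cells named fibroblasts, a type that makes matrix, the libraries of each group spread widely. Hmgcs1 was at 0.126 and 0.1998 CP10K against 0.171, 0.160 and 0.301 CP10K (log2 difference 0.27, limma adjusted p 0.689), and Fdps at 0.136 and 0.2001 CP10K against 0.182, 0.266 and 0.296 CP10K (0.45, 0.423). Idi1 stood at 0.184 and 0.0782 CP10K against 0.0325, 0.0999 and 0.0737 CP10K (log2 difference −0.59, limma adjusted p 0.441). With a library left out, the difference of Hmgcs1 ran from 0.02 to 0.52 and that of Idi1 from −1.02 to −0.15, both ends of each from leaving out an Apoe-/- library. The groups overlapped in all 5 genes. A fibroblast cluster led by Clec3b, Gpx3 and Cygb had Idi1 at 0.0829 to 0.303 CP10K over the libraries and a cluster led by Prg4, Timp1 and Lum had it at 0 to 0.0519 CP10K, and these held 50% and 50% of Apoe-/- fibroblasts and 34.5% and 65.5% of the others. Monocytes, dendritic cells and NK/T cells had at most 20 UMIs of any of the 5 genes per library. Whether a difference of the size seen in SMCs could have been detected in them at this depth was not assessed.

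Whether the group difference itself differed from that in SMCs was tested with an interaction term. None of the 23 tests of the 5 genes was passed, where 12.7% of all genes were called in macrophages, 2.74% in fibroblasts, 2.62% in monocytes, 2.36% in ECs, 0.459% in NK/T cells and 0.372% in dendritic cells. Nearest was Insig1, whose difference in macrophages was 0.51 (SE 0.182) above that in SMCs (limma adjusted p 0.0777). That of Hmgcs1 in fibroblasts was 0.59 (SE 0.284) above that in SMCs (limma adjusted p 0.321), and that in ECs stood at −0.34 (SE 0.287) relative to it (limma adjusted p 0.747).

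**Figure D3:**
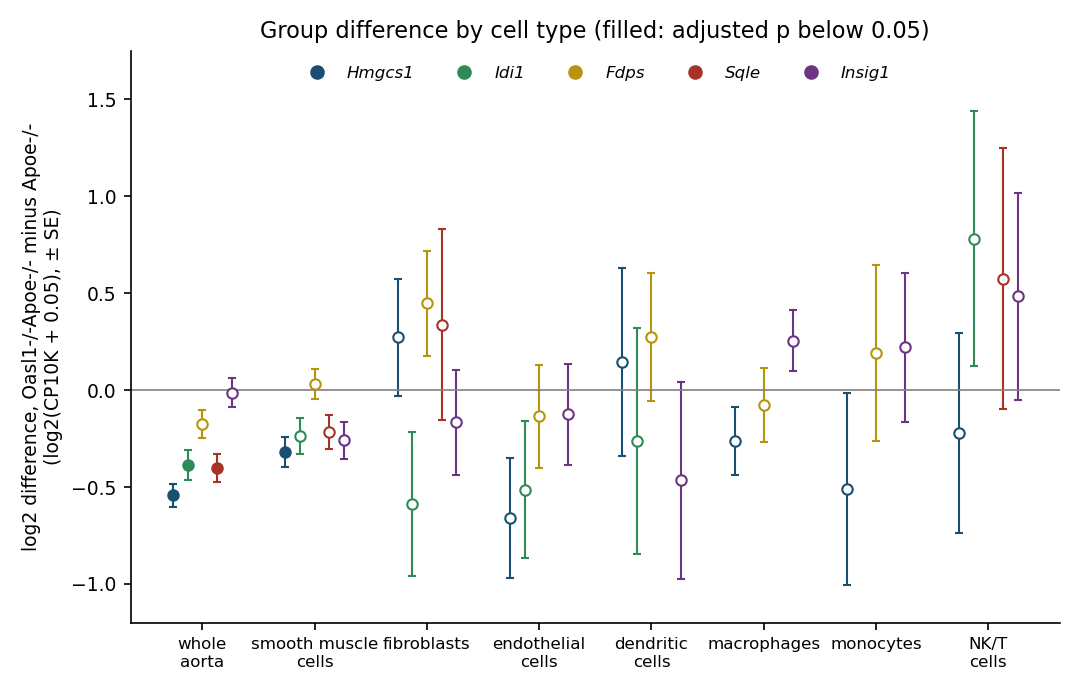
Log2 difference between the libraries labelled Oasl1-/-Apoe-/- and the Apoe-/- libraries for the 5 genes in each cell type in which they were tested (point and SE from limma, filled where the adjusted p is under 0.05). Within cell types only Hmgcs1 in SMCs is filled, at −0.32, and the error bars outside SMCs and macrophages are wide.

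Across cell types the 5 genes fell into a pattern of 4 and 1. Hmgcs1, Idi1, Fdps and Sqle were higher in SMCs than over the other 6 types, by 1.16 to 1.68 on the log2 scale, and Insig1 was not. SMCs had 36.7% of 11949 genes higher, so that 4 of 5 stood against that background. The comparison was made within libraries with limma, on the mean of all 5.

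Hmgcs1 was at 0.4645 ± 0.0677 CP10K (SD, n = 5) in SMCs, followed by 0.1915 in fibroblasts, 0.185 in NK/T cells, 0.158 in dendritic cells, 0.144 in ECs, 0.1001 in macrophages and 0.0720 in monocytes. The step from SMCs to fibroblasts passed the test (limma adjusted p 0.00047), and no later step between neighbours did. SMCs were above the other types by 1.51 (SE 0.191, limma adjusted p 2.1e-08). Hmgcs1 was lower in macrophages (−0.57, limma adjusted p 0.0127) and in monocytes (−0.97, 5.8e-05) than in the rest.

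Idi1 followed nearly the same order, at 0.181 ± 0.0245 CP10K (SD, n = 5) in SMCs, 0.0936 in fibroblasts, 0.0838 in dendritic cells, 0.0590 in ECs, 0.0581 in NK/T cells, 0.0424 in monocytes and 0.0264 in macrophages. Only the first step passed (limma adjusted p 0.0305). The difference of SMCs from the rest was 1.16 (SE 0.211, limma adjusted p 1.3e-05), and Idi1 was lower in macrophages (−0.71, limma adjusted p 0.00486).

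Sqle was at 0.203 ± 0.0217 CP10K (SD, n = 5) in SMCs, then at 0.0859 in fibroblasts, 0.0587 in NK/T cells, 0.0334 in dendritic cells, 0.0226 in macrophages, 0.0137 in monocytes and 0.00856 in ECs. The first step again passed (limma adjusted p 0.00614) and the others did not. SMCs stood above the rest by 1.68 (SE 0.23, limma adjusted p 1.1e-07), and Sqle was lower in ECs (−0.79, limma adjusted p 0.00401) and in monocytes (−0.66, 0.0136). In ECs Sqle stood at 4.23% of its SMC level, from 8 UMIs, where the sum of 6 SMC markers stood at 4.13% of its own. Whether these Sqle UMIs came from background RNA was not tested.

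Fdps was at 0.455 ± 0.0247 CP10K (SD, n = 5) in SMCs and at 0.368 ± 0.0698 CP10K (SD, n = 5) in dendritic cells, a step that did not pass (limma adjusted p 0.223). It was lower in fibroblasts with 0.216 CP10K than in dendritic cells (limma adjusted p 0.00496), then at 0.188 in ECs, 0.147 in macrophages and 0.129 in monocytes, with no step past the threshold, and at 0.0356 in NK/T cells, below monocytes (limma adjusted p 3.9e-05). Fdps was higher than in the rest in SMCs (1.31, SE 0.157, limma adjusted p 6.4e-09) and in dendritic cells (0.97, SE 0.157, 2.4e-06), and lower in monocytes (−0.48, 0.00858) and NK/T cells (−1.74, 1.3e-11). It was the 1 gene of the 5 that was called higher in dendritic cells, where 17.0% of all genes were.

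Insig1, which relays the sterol level to Scap, had no cell type set apart. It ran from 0.211 ± 0.0433 CP10K (SD, n = 5) in ECs through 0.208 in monocytes, 0.186 in fibroblasts, 0.167 in NK/T cells, 0.145 in macrophages and 0.137 in dendritic cells to 0.137 ± 0.0207 CP10K (SD, n = 5) in SMCs. No neighbours in that order differed past the threshold, and no type differed from the rest, with SMCs at −0.23 (SE 0.173, limma adjusted p 0.244). Of the 21 pairs of types, 1 passed, dendritic cells against ECs (−0.56, limma adjusted p 0.0298).

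Of the 5 genes, 2 were called lower in macrophages (35.7% of all genes), 3 in monocytes (47.1%), 1 in NK/T cells (42.1%) and 1 in ECs (18.4%). In SMCs the same 4 genes were higher with a pseudocount of 0.5 CP10K, in the Apoe-/- libraries alone and in the libraries labelled Oasl1-/-Apoe-/- alone. SMC markers stood at 0.522% to 7.95% of their SMC level in the other types. Hmgcs1 stood at 15.5% to 41.2% of its own and Idi1 at 14.6% to 51.75%, both above that range. Fdps stood at 7.83% to 80.9% and Sqle at 4.23% to 42.4%. Fdps in NK/T cells (7.83%) and Sqle in ECs (4.23%) and monocytes (6.78%) lay within the range of the markers.

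**Figure D4:**
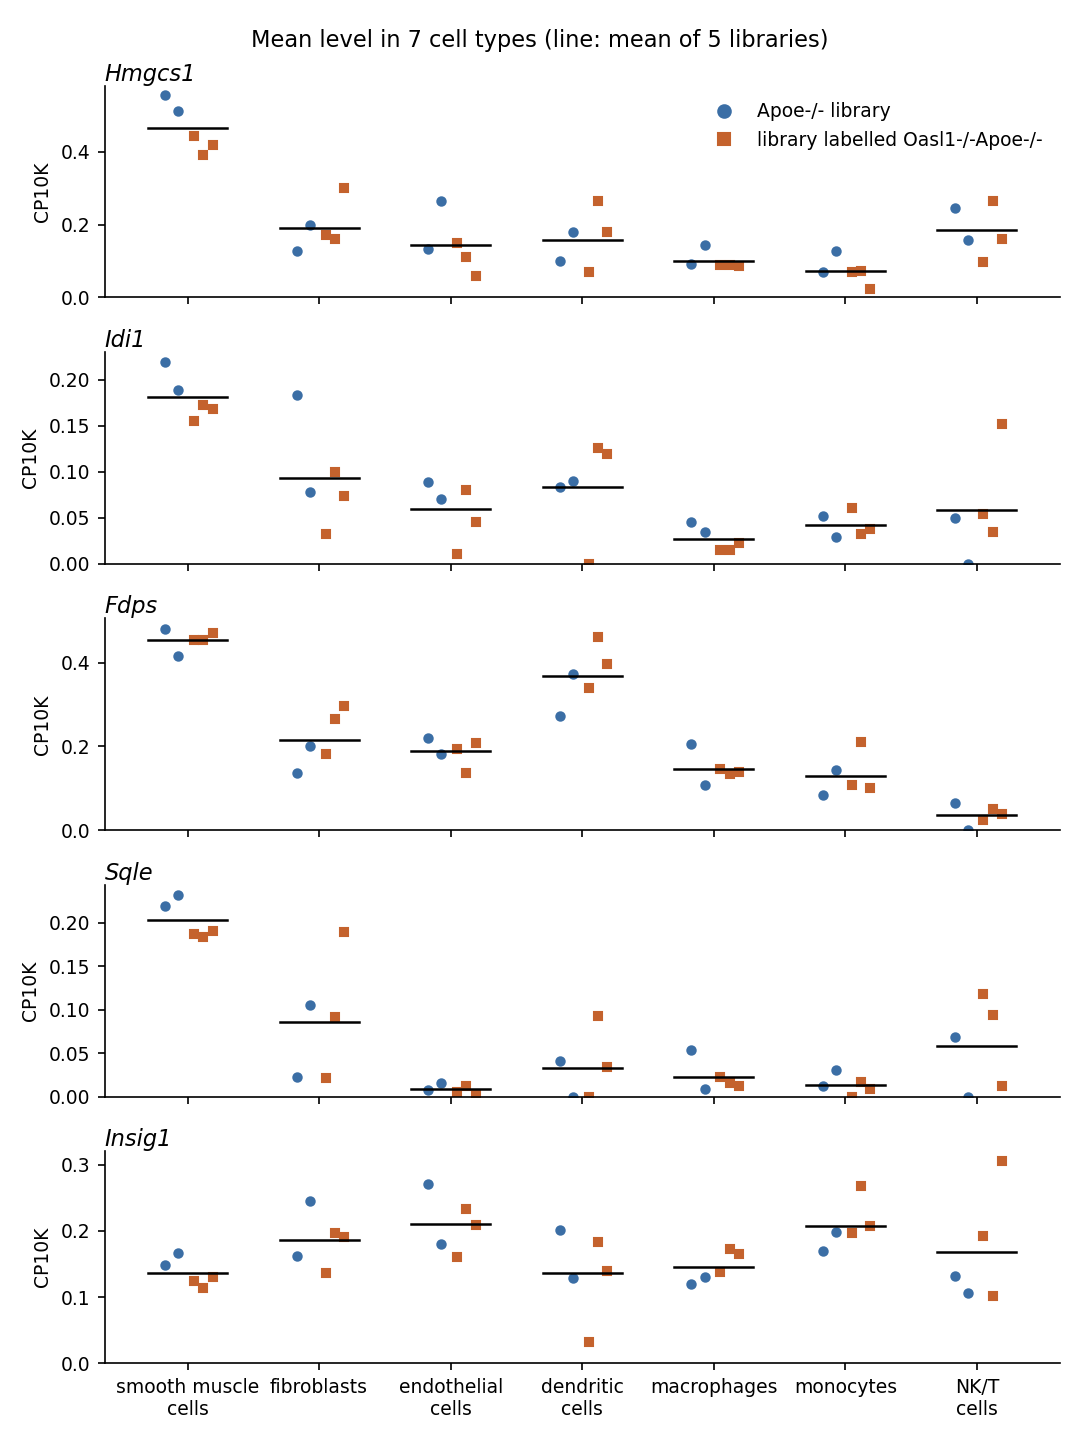
Level of each of the 5 genes in CP10K in 7 cell types, 1 point per library, on a separate linear axis from 0 for each gene. Hmgcs1, Idi1, Fdps and Sqle have their highest mean in SMCs, with Fdps in dendritic cells close to SMCs, while Insig1 runs from 0.137 to 0.211 CP10K without a type set apart.

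An unnamed cluster of 259 cells, led by Adamtsl1, 2210407C18Rik and Prss12 and with under 3 markers of any type, had mean levels above those of SMCs for all 5 genes, with no test. Hmgcs1 was at 0.486 and 0.446 CP10K in its Apoe-/- libraries and at 0.548, 1.276 and 0.472 CP10K in the others, and Fdps at 0.704 and 0.514 CP10K against 0.546, 1.308 and 0.901 CP10K. Replicate 2 labelled Oasl1-/-Apoe-/- stood apart for both, from as few as 31 cells per library. Insig1 in this cluster was at 0.201 to 0.420 CP10K, above its SMC level of 0.114 to 0.166 CP10K in every library. Another unnamed cluster, of 746 cells led by Itih4, Igfbp2 and Sfrp2, had Hmgcs1 at 0.207 to 0.358 CP10K. A cluster of 709 cells led by Cd5l, Atp6v0d2 and Gpnmb had 6 macrophage markers. It was left out of the macrophage class for its few UMIs (median 1305) and its leading genes. Insig1 in it was at 0.0357 and 0.0755 CP10K against 0.228, 0.198 and 0.274 CP10K. Hmgcs1 was at 0.295 and 0.318 CP10K against 0.230, 0.108 and 0.165 CP10K, with no test.

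The levels of the genes over the 35 values of 5 libraries in 7 types went together for 4 of them. Pearson's r was 0.778 for Sqle and Hmgcs1, 0.635 for Idi1 and Hmgcs1 and 0.617 for Sqle and Idi1, and it was 0.443 to 0.514 for Fdps with the other 3. Insig1 had r of −0.176 to 0.260 with the other 4. These values describe types that share libraries and depth, so no p is given. Of 5594 other genes, those most like the mean of the 5 were Acadsb (r 0.802), Hcfc1r1 (0.795), Itga8 (0.793), Smtn (0.775) and Csrp1 (0.772), of which Smtn and Csrp1 encode proteins of smooth muscle.

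The rest of the pathway was described from gene lists. Of 17 tested genes of sterol synthesis in the whole aorta, 7 were lower and 1 higher, where 20.6% of all genes were called lower and 20.5% higher. Their median log2 difference was −0.21 beside −0.03 over all genes. Lower beside Hmgcs1, Idi1 and Sqle were Mvk, Fdft1, Cyp51 and Msmo1, and higher was Ebp, named here after their values were seen. With the same cell type shares in every library, Hmgcs1 was the 1 gene of the 17 that was called, and the median was −0.06. With these shares 3.61% of all genes were called lower and 6.55% higher. In SMCs Hmgcs1 was the 1 gene of 17 that passed, where 2.11% of all genes were called lower. The median there was −0.14 beside 0.01 over all genes. By level, 14 of 19 sterol synthesis genes were higher in SMCs than in the other types and 2, Mvd and Ebp (named after their values were seen), were lower, with a median of 0.72 beside 0.12. Of all genes, 36.7% were higher in SMCs and 27.3% lower.

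Among the regulators, Srebf2 was lower in the whole aorta (log2 difference −0.18, limma adjusted p 0.036). It stood at −0.02 (limma adjusted p 0.907) with the same cell type shares in every library and at −0.03 (0.84) in SMCs. Srebf1, whose product mainly drives fatty acid synthesis, was the only regulator of 7 lower in SMCs, with 0.326 and 0.377 CP10K against 0.262, 0.244 and 0.242 CP10K (log2 difference −0.42, limma adjusted p 0.00471). It was also called lower in the whole aorta, and stayed so with the same cell type shares in every library (−0.36, limma adjusted p 0.00508). In macrophages Srebf1 was called lower, but not with both macrophage clusters at equal weight (−0.34, limma adjusted p 0.287). Insig2, the partner of Insig1, was at −0.12 in the whole aorta (limma adjusted p 0.106) and at 0.04 in SMCs (0.81). Of 9 tested genes of fatty acid synthesis, 8 were lower in the whole aorta, where 20.6% of all genes were, and 1 was lower in SMCs, where 2.11% were. The latter was the desaturase Scd2, at −0.46 (limma adjusted p 0.00021) in the whole aorta and −0.26 (0.0427) in SMCs. With the same cell type shares in every library, Scd2 was also the 1 gene of the 9 called in the whole aorta (−0.33, limma adjusted p 0.00828), where 3.61% of all genes were lower.

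Of the genes of sterol uptake and transport, Vldlr, a lipoprotein receptor gene, was lower in the whole aorta (log2 difference −0.45, limma adjusted p 0.00067). Higher were the lysosomal sterol carrier Npc2 (0.87, limma adjusted p 3.2e-07), the lysosomal lipase Lipa (0.50, 4.9e-05), Stard3 (0.48, 0.00035), and Scarb1, named after its value was seen. The shares of SMCs and macrophages given above also differed between these libraries. By level, Vldlr was higher in SMCs than in the other types, and Npc2, Lipa, Stard3 and Scarb1 were lower. Of all genes, 36.7% were higher in SMCs and 27.3% lower. With the same cell type shares in every library, 1 of 12 tested genes of this list was higher and 2 were lower, where 6.55% and 3.61% of all genes were. Npc2 remained higher (0.18, limma adjusted p 0.0139), and Lipa (−0.30, 0.00642) and Lrp1 (−0.22, 0.0132) were lower. Vldlr (−0.0021, 0.992), Stard3 (0.22, 0.0692) and Scarb1 (0.097, 0.505) did not pass. That fit did not equalise the clusters within macrophages. With both macrophage clusters at equal weight, Lipa in macrophages was at −0.09 (limma adjusted p 0.58).

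A further list held the LXR genes and genes of sterol export, esterification and oxysterol enzymes, not all of them LXR targets. Of its 8 tested genes, 5 were higher in the whole aorta and none lower, where 20.5% of all genes were higher. Among the 5 were Ch25h (1.16, limma adjusted p 7.5e-06), Abcg1 (0.70, 7.6e-06) and Abca1 (0.30, 0.00656). With the same cell type shares in every library, 6.55% of all genes were higher, and Ch25h was among them (0.83, limma adjusted p 0.00027), while Abca1 was lower (−0.42, 0.00615) and Abcg1 stood at −0.17 (0.0995). Within macrophages 1 of the 8 was higher and 4 were lower, where 8.70% of all genes were higher and 8.18% lower. Higher was Ch25h, an oxysterol-making hydroxylase (1.89, limma adjusted p 2.1e-07), and lower were Abca1 (−0.59, 0.00112), Abcg1 (−0.23, 0.0429), Nr1h3 and Soat1. Among the other list genes in macrophages the largest differences past the threshold were in Scd2 (−0.80, limma adjusted p 0.00118), Nr1h3, the gene of LXR alpha (−0.67, 0.00073), Npc1 (−0.66, 0.00633), Lpin1 (−0.61, 0.0248), Soat1, which esterifies cholesterol (−0.59, 0.00191), and Lrp1 (−0.56, 0.00061). The cluster makeup of the macrophage class given above moved with these differences. With both macrophage clusters at equal weight, 3.67% of all genes were called lower and 3.81% higher. Ch25h remained higher (1.33, limma adjusted p 0.00076) and Lrp1 remained lower (−0.38, 0.0499). Npc2 and Ebp, called higher and lower in macrophages, also remained so (0.37, limma adjusted p 0.00343, and −0.42, 0.0457). The others named here did not pass in that fit, with Abca1 at −0.25 (limma adjusted p 0.348), Abcg1 at 0.05 (0.729), Nr1h3 at −0.16 (0.496), Soat1 at −0.13 (0.589), Scd2 at −0.32 (0.283), Npc1 at −0.44 (0.173) and Lpin1 at −0.49 (0.284). Of the sterol lists, the HDL receptor Scarb1 was the 1 gene past the threshold in ECs (1.26, limma adjusted p 0.00047), and Npc2 was the 1 gene in fibroblasts (0.54, 0.00539). The cluster makeup of ECs and of fibroblasts given above also differed between the groups. Its part in the Scarb1 and Npc2 differences was not tested.

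**Figure D5:**
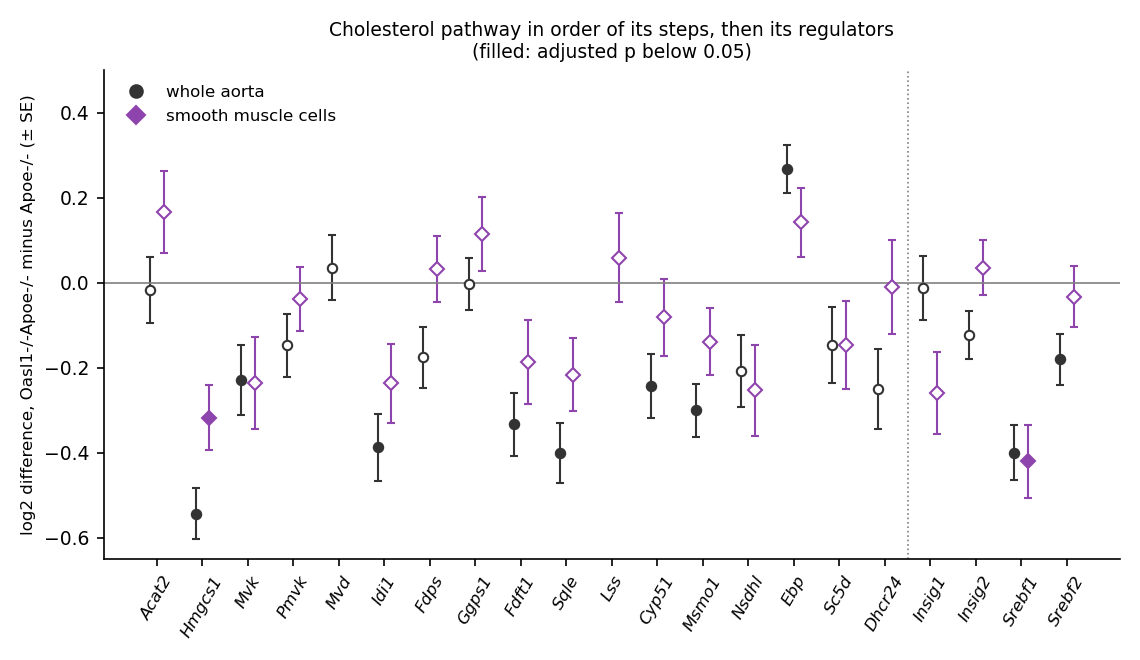
Log2 difference between the libraries labelled Oasl1-/-Apoe-/- and the Apoe-/- libraries for genes of cholesterol synthesis in the order of their steps, followed by regulators, in the whole aorta and in SMCs (point and SE from limma, filled where the adjusted p is under 0.05). In the whole aorta 7 synthesis genes, Srebf1 and Srebf2 are filled below 0 and Ebp above it, and in SMCs Hmgcs1 and Srebf1 are filled.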

How the data were processed

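The deposited table gives, for every cell, the natural log of 1 plus UMIs per 10000 UMIs of the cell, made by the authors with Cell Ranger 3.1.0 on mm10 and Seurat 4.0.3 after filters on gene number and mitochondrial share and removal of doublets, so that no doublet caller was run here. The values were turned back into CP10K and UMIs, of which 100% came out whole within 0.01. The table carries no cell types, and they were rebuilt. The 2000 most variable genes, without 62 sterol genes, gave 12 principal components, 20 neighbours per cell and Leiden clusters at resolution 1 (leidenalg 0.10.2, scikit-learn 1.9.0, Python 3.11.15), and a cluster was named from no fewer than 3 marker genes that were at least 2-fold higher in it, so that names may differ from those of the study.

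CP10K were averaged over the cells of each library, with the library as replicate (2 against 3), and tested with limma 3.58.1 (R 4.3.3) with a mean-variance trend on log2(mean CP10K + 0.05), for genes with a mean of at least 0.05 CP10K, with Benjamini-Hochberg adjustment over all genes tested. The fit was tested on simulated data. Levels across types were fitted with library as a term. UMI shares have Wilson 95% intervals.

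The 5 genes and all lists were chosen with earlier results of these data known. Named were the 5 genes in every comparison, Srebf2, Insig2, Ch25h, Abca1 and Oasl1, up to 6 other sterol genes past the threshold per comparison, up to 3 genes from each of the clock, stress and interferon lists, and the 5 genes most like the mean of the 5. The alternatives tried were other pseudocounts, filters, scalings, thinning, clusterings and gates, limma-voom on the UMIs, each library left out and a replicate block. Some genes of the lists are not reported here.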

Additional observations from a re-analysis of the deposited data

Results flagged for a closer look

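None of Hmgcs1, Idi1, Fdps, Sqle and Insig1 had a group difference that differed between a cell type and SMCs past the threshold, but 9 tests of other sterol genes did. Each value is the log2 group difference in the named type minus that in SMCs, tested with limma as an interaction, and it was chosen here because that test was passed. In macrophages this was the case for Nr1h3 (−0.82, adjusted p 0.00774), Soat1 (−0.81, 0.00352), Npc1 (−0.72, 0.00913), Lipa (−0.68, 0.00093), Abca1 (−0.64, 0.00491), Ebp (−0.55, 0.00869), Scd2 (−0.54, 0.0129) and Lrp1 (−0.49, 0.00424). All 8 stood lower in macrophages relative to SMCs, where 870 of 6827 genes passed in either direction. In fibroblasts Npc2 stood higher (0.46, limma adjusted p 0.0352), where 230 of 8398 genes passed. The fibroblast clusters also differed in share between the groups, and the part of this in the Npc2 value was not tested. The clusters that make up the macrophage class differed in share between the groups as given above. With both clusters at equal weight, a fit chosen after seeing the data, 1 of the 8 passed, Ebp (−0.56, limma adjusted p 0.0498), and 7 did not, at −0.50 for Npc1 (0.179) to −0.06 for Scd2 (0.86), where 345 of 6836 genes passed.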

How the results depend on the processing

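Of the log2 differences of the 5 genes under the alternatives, 316 kept direction and side of the threshold, 4 came past it, 7 lost it and 20 changed sign. The count of called genes in the whole aorta went from 3 to 1 with cell types reweighted and ran from 3 to 4 with a library left out, and that in SMCs went from 1 to 0 when thinned and ran from 0 to 1 with a library left out. Thinning and leaving out a library leave fewer UMIs or samples. Besides the losses given above, Idi1 in the whole aorta lost its call when thinned (−0.375, limma adjusted p 0.133). The share of cells with an Insig1 UMI in the whole aorta differed by 0.3355 percentage points with all UMIs and by −0.295 when thinned.

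Changes of sign were all in differences that did not pass the test. In the whole aorta Fdps went to 0.088 reweighted. With a library left out, Insig1 in the whole aorta ran from −0.057 to 0.035 (above 0 at 0.0089 without Apoe-/- replicate 2 and highest without replicate 1 labelled Oasl1-/-Apoe-/-), Fdps in SMCs from −0.0625 (without Apoe-/- replicate 2) to 0.13, Fdps in ECs from −0.25 to 0.0066, Insig1 in ECs from −0.36 to 0.11, Sqle in fibroblasts from −0.21 to 0.88 (−0.082 without replicate 3 labelled Oasl1-/-Apoe-/-), Insig1 in fibroblasts from −0.40 to 0.071, and Fdps in macrophages from −0.42 to 0.26. Fdps in ECs was at 0.0001 on the mean of the deposited values. Insig1 in fibroblasts was at 0.18 with genes scaled by library before clustering and at 1.0016 when thinned. Fdps in macrophages was at 0.028 with genes scaled by library, 0.0027 on the deposited values, 0.0335 with the marker gate and 0.17 when thinned, and Insig1 in macrophages at −0.0063 with equal cluster weights and −0.013 when thinned. The cause was not tested.

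Over all genes, 4045 were called in the whole aorta, 2014 higher and 2031 lower, against 998 reweighted (643 and 355), 2533 thinned and 4376 centred on the median gene (1788 and 2588). In SMCs 557 were called, against 196 thinned and 251 to 711 with a library left out, the lowest without replicate 3 labelled Oasl1-/-Apoe-/-. The share of genes called lower ran, with a library left out, from 0.506% to 6.66% in fibroblasts (6.66% and 5.08% without either Apoe-/- library, 0.791% with a replicate block), 5.2% to 9.45% in macrophages (3.67% with equal cluster weights), 0.628% to 0.952% in ECs, 0.588% to 1.54% in monocytes, 0.145% to 0.424% in NK/T cells and 0.224% to 0.606% in dendritic cells, and none of the 5 genes was called in these types in any of them. The groups share replicate numbers 1 and 2, but deviations of same-numbered libraries correlated at 0.015 and 0.043 in the whole aorta and at −0.013 and 0.030 in SMCs. With a replicate block, 3 of the 5 genes were called in the whole aorta and 1 in SMCs (3017 and 551 genes in all), and Sqle in fibroblasts went to −0.082.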
